A study of Mus musculus with 6 samples.

Results

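Chemokines are small secreted proteins that draw leukocytes along a gradient, and they are read by receptors of the G protein-coupled family on the cells they attract. The genes examined here were all those whose symbol in the probe annotation begins with Ccl, Cxcl, Cx3cl, Xcl, Ccr, Cxcr, Cx3cr or Xcr followed by a number and at most 1 letter. The rule found 53 genes, 36 for ligands and 17 for receptors, among 19057 named genes. They were read by 78 of the 45281 probes of the Illumina MouseWG-6 v2.2 BeadChip, on which transcripts bind to short probes carried by beads. The arrays held total RNA of colon tumors from 3 Chrm3-/- mice, which lack the gene for the M3 muscarinic acetylcholine receptor, and from 3 WT mice. Mice of both genotypes had received azoxymethane (AOM), a carcinogen that acts on the colon, and by the methods all were male and each array came from a different mouse. The labels give the strain of both genotypes as 129S6/SvEvTac X CF1:50%/50% and their age as 7 months. Whole tumors were used, so in all the results below fewer cells of a type and less RNA per cell cannot be told apart, and no array of untreated colon was analysed here.

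CXC ligands with a Glu-Leu-Arg motif, such as Cxcl1 and Cxcl2, act through Cxcr2 and draw neutrophils. Ccl2, Ccl7 and Ccl12 draw monocytes through Ccr2, whereas Ccl3 and Ccl4 act on monocytes and lymphocytes through other receptors. Ccl19 and Ccl21 bring lymphocytes that carry Ccr7 into lymphoid tissue, Cxcl13 brings B cells that carry Cxcr5 into follicles, and Cxcl9 and Cxcl10 are interferon-induced ligands of Cxcr3. In the colon, such ligands come from epithelium, stroma and resident leukocytes, and they are known for setting which leukocytes enter inflamed mucosa and tumors. Members were grouped as attractants of neutrophils, monocytes, eosinophils or lymphocytes, as other ligands, or as receptors. Several ligands attract more than 1 kind of cell, and each was placed by the cell it is best known for.

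The promoters of 4 ligands are shown because Cxcl1, Cxcl2 and Cxcl10 shared their highest array, WT replicate 1, whereas Ccl19 was bright on Chrm3-/- replicate 1 alone. Promoters of 300 bases, with 250 before the transcription start and 50 after it, were taken from RefSeq on GRCm38.p6, and 39 of the 53 genes were matched, some with more than 1 promoter. Capitals mark matches on either strand to the NF-kB consensus (GGG, a purine, any 2 bases, 2 pyrimidines and CC) or to the core of the interferon-stimulated response element (GAAA, any 2 bases, GAAA). Cxcl1 lies at chr5:90890995-90891294 on the plus strand, Cxcl2 at chr5:90903649-90903948 on the plus strand, Cxcl10 at chr5:92348840-92349139 on the minus strand and Ccl19 at chr4:42756316-42756615 on the minus strand.
Cxcl1: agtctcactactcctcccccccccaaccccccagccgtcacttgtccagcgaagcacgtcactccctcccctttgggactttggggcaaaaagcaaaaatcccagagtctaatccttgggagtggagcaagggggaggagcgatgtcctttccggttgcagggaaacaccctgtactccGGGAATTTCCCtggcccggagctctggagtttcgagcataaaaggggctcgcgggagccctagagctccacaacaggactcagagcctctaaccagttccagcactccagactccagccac
Cxcl2: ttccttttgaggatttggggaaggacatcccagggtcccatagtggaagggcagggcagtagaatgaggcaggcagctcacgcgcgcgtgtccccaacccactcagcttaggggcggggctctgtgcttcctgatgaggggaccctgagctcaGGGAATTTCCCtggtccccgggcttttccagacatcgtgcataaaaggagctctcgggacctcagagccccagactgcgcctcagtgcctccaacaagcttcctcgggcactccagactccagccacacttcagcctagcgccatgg
Cxcl10: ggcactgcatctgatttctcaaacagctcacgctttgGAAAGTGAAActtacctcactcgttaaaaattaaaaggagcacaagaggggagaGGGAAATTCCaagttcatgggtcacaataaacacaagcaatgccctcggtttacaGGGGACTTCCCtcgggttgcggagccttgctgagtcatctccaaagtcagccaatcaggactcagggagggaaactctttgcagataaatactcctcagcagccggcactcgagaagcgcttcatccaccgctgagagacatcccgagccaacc
Ccl19: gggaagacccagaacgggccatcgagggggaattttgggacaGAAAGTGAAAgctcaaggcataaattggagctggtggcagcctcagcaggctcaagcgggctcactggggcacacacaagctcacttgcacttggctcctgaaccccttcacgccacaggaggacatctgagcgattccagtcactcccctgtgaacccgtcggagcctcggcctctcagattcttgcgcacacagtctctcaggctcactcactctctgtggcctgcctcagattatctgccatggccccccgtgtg
The neutrophil attractants Cxcl1, Cxcl2 and Cxcl3 held the same stretch, GGGAATTTCCC, in which matches on the plus and minus strands overlap. Cxcl10 held 2 separate stretches of the NF-kB consensus and 1 of the response element core, and Ccl19 held the core alone. None of the capitals of one motif overlapped those of the other. The NF-kB consensus was found in 3 of 4 promoters of neutrophil attractants, 1 of 5 of monocyte attractants and 4 of 17 of lymphocyte attractants, against 8.46% of all 32851 promoters. The response element core was found in 2 of 17 promoters of lymphocyte attractants and in 3.44% of all promoters. The 4 promoters shown do not stand for the rest. Cxcl15, Ccl3, Ccl17 and Cxcl9 were also highest on WT replicate 1 and held neither motif. Ccl20, Ccl9 and Ccr6 (in 1 of its promoters) held the NF-kB consensus, and their tested probes were highest on Chrm3-/- replicate 1. A link between motif and array was not tested. A match describes the letters of a window and does not show that a factor binds there.

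Values are normalized intensities, given below for replicates 1, 2 and 3 of a genotype in that order. On each array 46.1% of probes read under 2 with evenly spaced values, which was taken to mean not above background. Fold changes are on the scale of log2(intensity + 50), which makes those of dim genes smaller, and p-values are two-sided from limma over the 22641 probes in the brighter part of the table. The single Chrm3 probe read 25.1, 32.1 and 21.9 in Chrm3-/- tumors, against 9.06, 1.80 and 1.94 in WT tumors (log2 fold change 0.49, standard error 0.10, limma adjusted p = 0.365). Whether this probe lies in the deleted part is not stated by the sources read, so it is no check of the genotypes, which are as labelled. Among the 6 arrays, Chrm3-/- replicate 1 stood apart. On the first principal component, which held 53.0% of the variance, it lay at 87.8 and the other 5 arrays between -45.5 and -6.15. Log2 values correlated at 0.916 to 0.973 within the Chrm3-/- arrays and at 0.982 to 0.986 within the WT arrays. Log2 fold changes that this array moved strongly are therefore given without it as well, and the plot of fold changes shows that value for every tested probe.

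Of the 78 probes, 56 were bright enough to be tested, and they covered 39 genes. None of the 56 passed an adjusted p of 0.05 in limma, where 28 of all 22641 tested probes (0.124%) passed. At an unadjusted p under 0.05, limma found 4 of the 56, and 4.82% of all tested probes. The methods' t-test found 1 of the 56 at an unadjusted p under 0.05, against 5.47% of all tested probes, and 0 after Benjamini-Hochberg adjustment, against 0.0398% of all tested probes. The limma adjusted p was 0.477 for Ccl24 and at least 0.99 for every other member. In log2 fold change, 29 of the 56 probes (51.8%) lay below 0, against 47.6% of all tested probes, and their median was -0.03, against 0.01 for all tested probes. The share of members that passed or leaned one way was thus near the background of the whole table. Chrm3-/- replicate 1 was the highest array for 27 of the 56 probes (48.2%, against 24.5% of all tested probes), and Chrm3-/- replicate 2 was the lowest for 29 (51.8%, against 20.9%). WT replicate 1 was the highest for 18 (32.1%, against 14.7%).

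**Figure D1:**
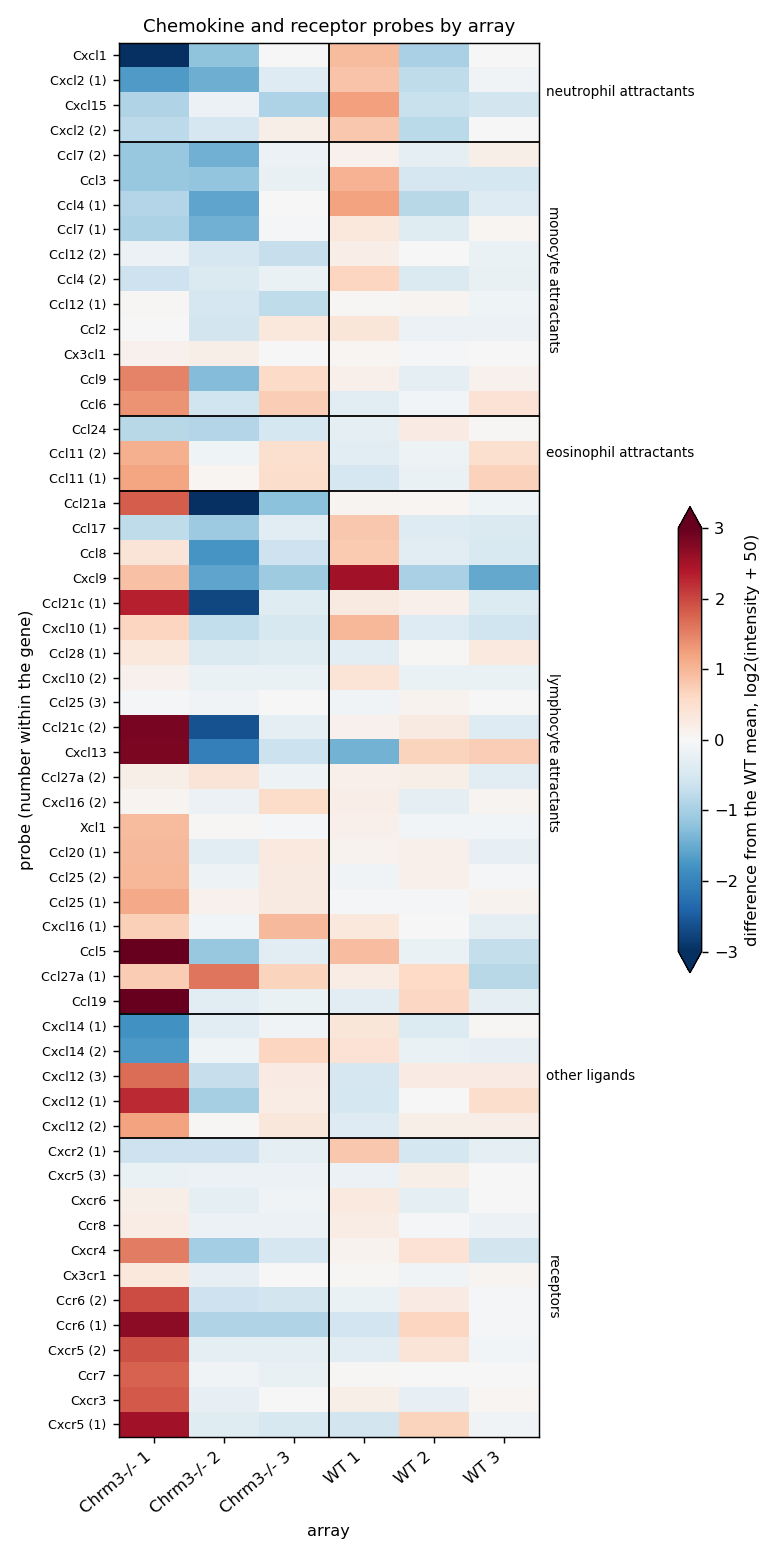
Heat map of the 56 tested chemokine and receptor probes (rows, grouped by role and ordered by log2 fold change) on the 3 Chrm3-/- arrays and the 3 WT arrays (columns). Colour is the difference from the mean of the WT arrays in log2(intensity + 50), cut at 3 in either direction, and Chrm3-/- replicate 1 is red for most receptors and blue for neutrophil attractants.

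WT replicate 1 was the highest array for neutrophil and monocyte attractants, and Chrm3-/- replicate 1 for lymphocyte attractants. Neutrophil attractants (4 tested probes of 3 genes) had a median log2 fold change of -0.92 with all 4 probes below 0, monocyte attractants (11 probes of 8 genes) a median of -0.42 with 8 below 0, and lymphocyte attractants (21 probes of 15 genes) a median of 0.04 with 10 below 0. For neutrophil attractants the median difference from the WT mean was -1.30, -0.85 and -0.20 on the Chrm3-/- arrays, against 0.91, -0.78 and -0.05 on the WT arrays. Among the WT arrays only replicate 1 lay above the WT mean, and WT replicate 2 lay among the Chrm3-/- arrays. For monocyte attractants the same values were -0.18, -0.60 and -0.07 on the Chrm3-/- arrays, against 0.20, -0.30 and -0.12 on the WT arrays. Lymphocyte attractants gave 0.87, -0.35 and -0.21 on the Chrm3-/- arrays, against 0.16, 0.04 and -0.29 on the WT arrays. In that class Chrm3-/- replicate 1 was high and the other 5 arrays overlapped.

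Leaving out 1 array moved each class. Without WT replicate 1 the medians were -0.40 for neutrophil attractants, with 3 of 4 probes below 0, -0.22 for monocyte attractants and 0.25 for lymphocyte attractants. Without Chrm3-/- replicate 1 they were -0.58 for neutrophil attractants, -0.59 for monocyte attractants and -0.28 for lymphocyte attractants, of which 15 of 21 probes then lay below 0. Over all 56 probes the median was -0.31 without Chrm3-/- replicate 1, with 44 below 0, where 10720 of all 22641 tested probes lay below 0. It was 0.16 without Chrm3-/- replicate 2, with 22 below 0, where 11560 of all tested probes did. Without WT replicate 1 it was 0.06, again with 22 below 0, where 10821 of all tested probes did. The direction of the whole group therefore turned on which array was left out.

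Cxcl1, known in the mouse as KC, had the lowest log2 fold change of all members. It read 27.6, 238 and 609 in Chrm3-/- tumors, against 1243, 289 and 625 in WT tumors. The lowest value was that of Chrm3-/- replicate 1 and the highest that of WT replicate 1, while Chrm3-/- replicate 3 lay above WT replicate 2. The log2 fold change was -1.44 (standard error 0.82, limma adjusted p = 0.991), -0.61 without Chrm3-/- replicate 1 and -0.97 without WT replicate 1. Cxcl2, which shares the Cxcr2 receptor with Cxcl1, had 2 probes. The first read 1.19, 10.3 and 76.7 in Chrm3-/- tumors, against 249.8, 47.8 and 104 in WT tumors (log2 fold change -1.18, standard error 0.49, unadjusted p = 0.0486, limma adjusted p = 0.991). Chrm3-/- replicate 3 lay within the WT range, and on Chrm3-/- replicate 1 the probe was not above background. Without WT replicate 1 the log2 fold change of this probe was -0.75. The second probe read 3.80, 15.6 and 55.3 in Chrm3-/- tumors, against 112, 3.05 and 41.9 in WT tumors, and its genotypes overlapped throughout, with a log2 fold change of -0.36 that was -0.15 without Chrm3-/- replicate 1.

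Cxcl15, known in the mouse as lungkine, read 1.84, 36.0 and 1.09 in Chrm3-/- tumors, against 177, 11.02 and 16.2 in WT tumors. The probe was not above background on 2 of the Chrm3-/- arrays, and Chrm3-/- replicate 2 lay above 2 of the WT arrays. The log2 fold change was -0.67 (standard error 0.51), and -0.06 without WT replicate 1. Cxcr2 is the receptor of Cxcl1 and Cxcl2 on neutrophils. Its tested probe read 1.67, 1.42 and 15.0 in Chrm3-/- tumors, against 88.3, 4.93 and 15.8 in WT tumors. The log2 fold change of Cxcr2 was -0.51 (standard error 0.33, limma adjusted p = 0.991), and -0.11 without WT replicate 1. WT replicate 1 was again the highest array, as it was for all 4 tested probes of the attractants. Cxcl3 and Cxcr1 were not bright enough to be tested.

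The sum of neutrophil markers was lowest and highest on the same arrays as Cxcl1. Over 12 matched markers of 14, the summed intensity was 206, 2857 and 6403 in Chrm3-/- tumors, against 17250, 7773 and 6273 in WT tumors. Chrm3-/- replicate 3 lay between the WT replicates. Ngp was under 2 on all arrays, and Mmp8 and Elane were also too dim to be tested. Lcn2 gave a large part of the sum on most arrays. It read 27.6, 1329 and 4419 in Chrm3-/- tumors, against 10499, 4949 and 3734 in WT tumors. Of 9 tested markers, 6 were lowest on Chrm3-/- replicate 1 and highest on WT replicate 1, whereas Camp, Mpo and Retnlg were not. In log2 fold change 7 of the 9 lay below 0, against 47.6% of all tested probes. The median log2 fold change was -1.02, and -0.78 without Chrm3-/- replicate 1. None of the 9 passed an adjusted p of 0.05 in limma, against 0.124% of all tested probes. At an unadjusted p under 0.05, limma found 3 of the 9, against 4.82% of all tested probes. The methods' t-test found 0 at an unadjusted p under 0.05, against 5.47% of all tested probes. The part of neutrophil content in the values of Cxcl1, Cxcl2 and Cxcr2 was not tested. Il1b, an interleukin that induces these ligands, read 74.9, 127 and 431 in Chrm3-/- tumors, against 833, 161 and 367 in WT tumors, and its genotypes overlapped as well. Among the other tested inducers, Nfkb2, Nfkbia, Tnfaip3, Irf1, Irf7 and Myd88 were instead highest on Chrm3-/- replicate 1. Tnf, Il1a, Nfkbiz and Rela were highest on Chrm3-/- replicate 3.

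**Figure D2:**
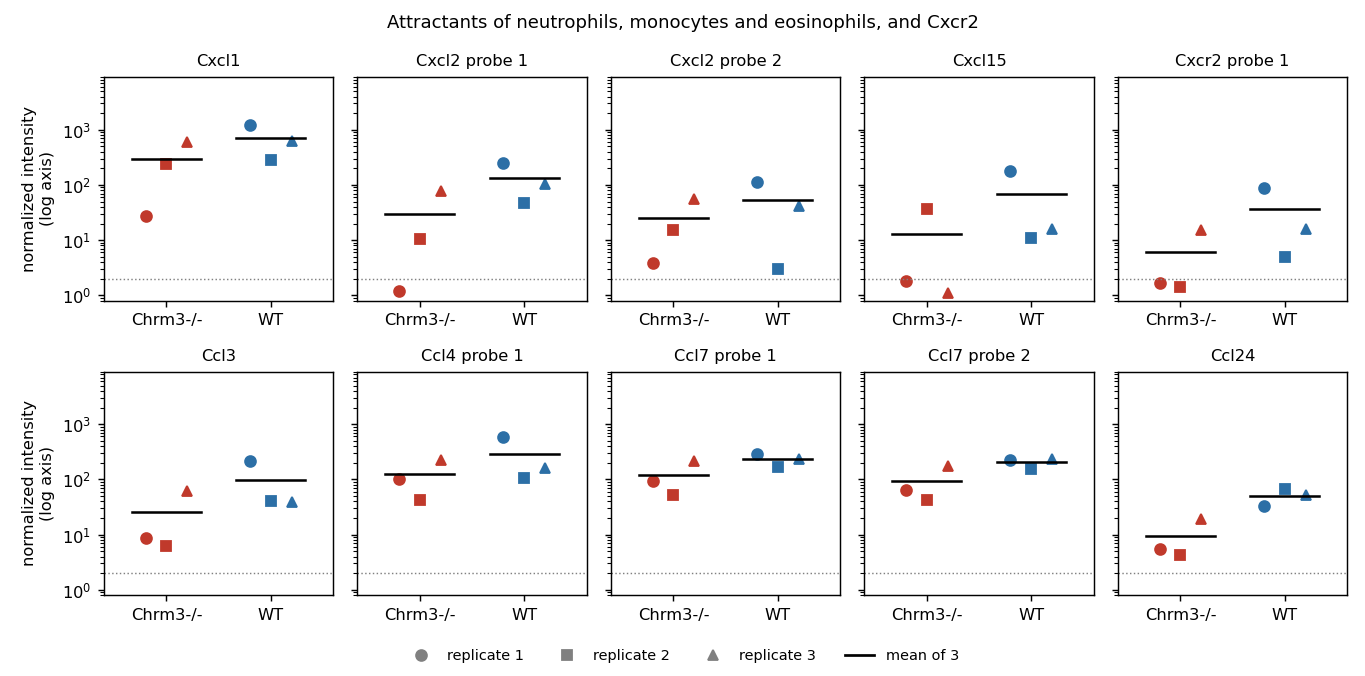
Normalized intensity (log axis) of 10 probes for attractants of neutrophils, monocytes and eosinophils and for Cxcr2, with 3 Chrm3-/- arrays left of 3 WT arrays, marker shape for the replicate number and a line at the mean. The dotted line is at 2, under which values were not above background, and Ccl24 is the only probe of the 10 whose genotypes do not overlap.

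Among monocyte attractants, Ccl7 had the smallest p. Its second probe read 65.5, 43.1 and 176 in Chrm3-/- tumors, against 227, 156 and 236 in WT tumors (log2 fold change -0.92, standard error 0.35, unadjusted p = 0.0360, limma adjusted p = 0.991). Only Chrm3-/- replicate 3 reached the WT range, where it lay above WT replicate 2. The other probe of Ccl7 gave 94.7, 52.7 and 215 in Chrm3-/- tumors, against 294, 166 and 237 in WT tumors, and overlapped in the same way (log2 fold change -0.81). Left out in turn, no array turned the sign of either probe.

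Ccl3 and Ccl4, neighbouring genes for macrophage inflammatory proteins, shared a pattern with the neutrophil attractants. Ccl3 read 8.75, 6.27 and 60.9 in Chrm3-/- tumors, against 213, 40.2 and 39.3 in WT tumors (log2 fold change -0.84, standard error 0.48). Ccl4 read 101, 41.6 and 226 in Chrm3-/- tumors, against 589, 105 and 163 in WT tumors on its first probe (log2 fold change -0.82, standard error 0.61). In both genes WT replicate 1 was the highest array and Chrm3-/- replicate 3 lay above the other WT replicates. Without WT replicate 1 the log2 fold changes were -0.33 for Ccl3 and -0.22 for Ccl4.

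Ccl9 and Ccl6, related mouse ligands of Ccr1, had log2 fold changes above 0 that rested on Chrm3-/- replicate 1. Ccl9 read 894, 85.8 and 445 in Chrm3-/- tumors, against 325, 221 and 319 in WT tumors, so that the Chrm3-/- arrays held both the highest and the lowest value. Its log2 fold change was 0.25 (standard error 0.66), and -0.37 without Chrm3-/- replicate 1. Ccl6 had a log2 fold change of 0.49, which was 0.07 without that array, and Cx3cl1, the membrane-bound ligand of Cx3cr1, one of 0.10. The probes of Ccl12 had log2 fold changes of -0.42 and -0.45 (-0.64 and -0.59 without that array), and Ccl2, the main monocyte attractant, one of -0.08. The summed intensity of 11 matched markers of monocytes and macrophages was 12507, 4504 and 8880 in Chrm3-/- tumors, against 9073, 6076 and 8614 in WT tumors, and most of it came from Lyz2 (8287, 2293 and 4858 in Chrm3-/- tumors, against 5150, 3143 and 4172 in WT tumors). Over the 10 tested markers the median difference from the WT mean was 0.10, -0.53 and -0.07 on the Chrm3-/- arrays, against 0.10, -0.28 and 0.15 on the WT arrays. Chrm3-/- replicate 2 and WT replicate 2 were thus low for these markers as for the attractants. Of the 10, 6 had log2 fold changes below 0 (median -0.11), and all 10 did without Chrm3-/- replicate 1 (median -0.27). The part of monocyte and macrophage content in the values of the attractants was not tested.

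The eosinophil attractant Ccl24 had the smallest p of all members and was the only 1 of the 56 tested probes whose Chrm3-/- arrays all lay below the WT arrays, a pattern found in 5.50% of all tested probes. It read 5.45, 4.26 and 18.8 in Chrm3-/- tumors, against 32.4, 66.9 and 51.5 in WT tumors. The means were 9.50 ± 8.07 in Chrm3-/- tumors and 50.2 ± 17.3 in WT tumors (SD, n = 3 each). The log2 fold change was -0.75 (standard error 0.17, unadjusted p = 0.00369, limma adjusted p = 0.477), and it stayed between -0.88 and -0.63 as each array was left out. The gene was dim in both genotypes. Without the offset of 50 the log2 fold change was -2.67.

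Ccl11, the other eosinophil attractant tested, did not follow Ccl24. It read 429, 168 and 252 in Chrm3-/- tumors, against 97.4, 134 and 289.9 in WT tumors on the first probe (log2 fold change 0.59, standard error 0.40). The second probe gave 127, 27.5 and 68.6 in Chrm3-/- tumors, against 17.4, 26.8 and 67.9 in WT tumors (log2 fold change 0.47, standard error 0.35). Without Chrm3-/- replicate 1 the log2 fold changes were 0.29 and 0.18. On both probes WT replicate 3 lay inside the Chrm3-/- range. Ccr3, the receptor of both ligands on eosinophils, and Ccl26 were too dim to be tested. The eosinophil markers Siglecf and Epx were under 2 on all 6 arrays, and the 8 matched markers of eosinophils and mast cells summed to 940, 643 and 5646 in Chrm3-/- tumors, against 3021, 609.5 and 605 in WT tumors.

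Lymphocyte attractants were the most uneven class, with log2 fold changes between -0.96 and 1.47. Ccl19 read 1971, 1.29 and 6.47 in Chrm3-/- tumors, against 1.89, 50.0 and 3.40 in WT tumors. It was thus bright on 1 array, Chrm3-/- replicate 1, and near background on most others. The log2 fold change was 1.47 (standard error 1.36, limma adjusted p = 0.991), and it was -0.28 without that array. The homing ligand Ccl21a, which like Ccl19 acts through Ccr7, read 3268, 36.1 and 350 in Chrm3-/- tumors, against 940, 930.3 and 810.2 in WT tumors. The WT arrays were close together and the Chrm3-/- arrays lay on both sides of them. Its log2 fold change was -0.96 (standard error 1.18) with all arrays, -2.34 without Chrm3-/- replicate 1 and 0.29 without Chrm3-/- replicate 2. Ccl21c, a near-identical copy, read 5144, 104 and 743 in Chrm3-/- tumors, against 1182, 1086 and 718 in WT tumors on its first probe, with a log2 fold change of -0.25 that was 0.99 without Chrm3-/- replicate 2. The copies may share transcripts on their probes, so the values of Ccl21a and Ccl21c are uncertain between the copies.

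Cxcl13, Ccl5 and Cxcl9 each read more than 2 times higher on 1 array than on any other. Cxcl13 read 2795, 46.6 and 205 in Chrm3-/- tumors, against 99.1, 592 and 624 in WT tumors. The log2 fold change was 0.04 (standard error 1.24), and it was -1.35 without Chrm3-/- replicate 1 and -0.15 without the offset. Ccl5, an attractant of T cells, read 2060, 16.2 and 63.7 in Chrm3-/- tumors, against 223, 76.7 and 37.4 in WT tumors, with a log2 fold change of 0.80 that was -0.74 without that array. The highest array for both was Chrm3-/- replicate 1. Cxcl9, in contrast, was highest on WT replicate 1, with 395, 31.0 and 65.8 in Chrm3-/- tumors, against 1347, 72.8 and 33.3 in WT tumors. Its log2 fold change of -0.59 was 0.67 without WT replicate 1 and -1.33 without Chrm3-/- replicate 1. The probes of Cxcl10, whose promoter holds both motifs, had log2 fold changes of -0.19 and -0.10 (-0.61 and -0.21 without Chrm3-/- replicate 1) and were also highest on WT replicate 1. Ccl17, a ligand of Ccr4, was highest on that array too (log2 fold change -0.73, standard error 0.37). The other tested lymphocyte attractants, Ccl8, Ccl20, Ccl28, Cxcl16 and Xcl1, had log2 fold changes from -0.67 for Ccl8 to 0.54 for the first probe of Cxcl16, each with overlapping genotypes. Without Chrm3-/- replicate 1 the value of Ccl8 was -1.20, and those of Ccl20 and Xcl1, 0.32 and 0.31 with all arrays, were both -0.01.

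The 2 member probes whose Chrm3-/- arrays all lay above the WT arrays, a pattern found in 5.20% of all tested probes, belonged to Ccl27a and Ccl25, epithelial ligands known from the skin and from the small intestine and thymus. The first probe of Ccl27a read 117, 249.2 and 106 in Chrm3-/- tumors, against 63.9, 99.1 and 5.25 in WT tumors (log2 fold change 1.02, standard error 0.43, unadjusted p = 0.0485, limma adjusted p = 0.991). Here Chrm3-/- replicate 2 was the highest array, not replicate 1. The second probe of Ccl27a overlapped and had a log2 fold change of 0.14, and Ccl27a has near-identical copies, so its value is uncertain between them. The first of 3 tested probes of Ccl25 read 223, 85.9 and 99.6 in Chrm3-/- tumors, against 69.6, 70.2 and 83.7 in WT tumors (log2 fold change 0.51, standard error 0.29, and 0.20 without Chrm3-/- replicate 1). The third probe of Ccl25 had a log2 fold change of -0.04. Of 14 genes with several tested probes, Ccl25 and Cxcr5 were those whose probes differed in sign.

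**Figure D3:**
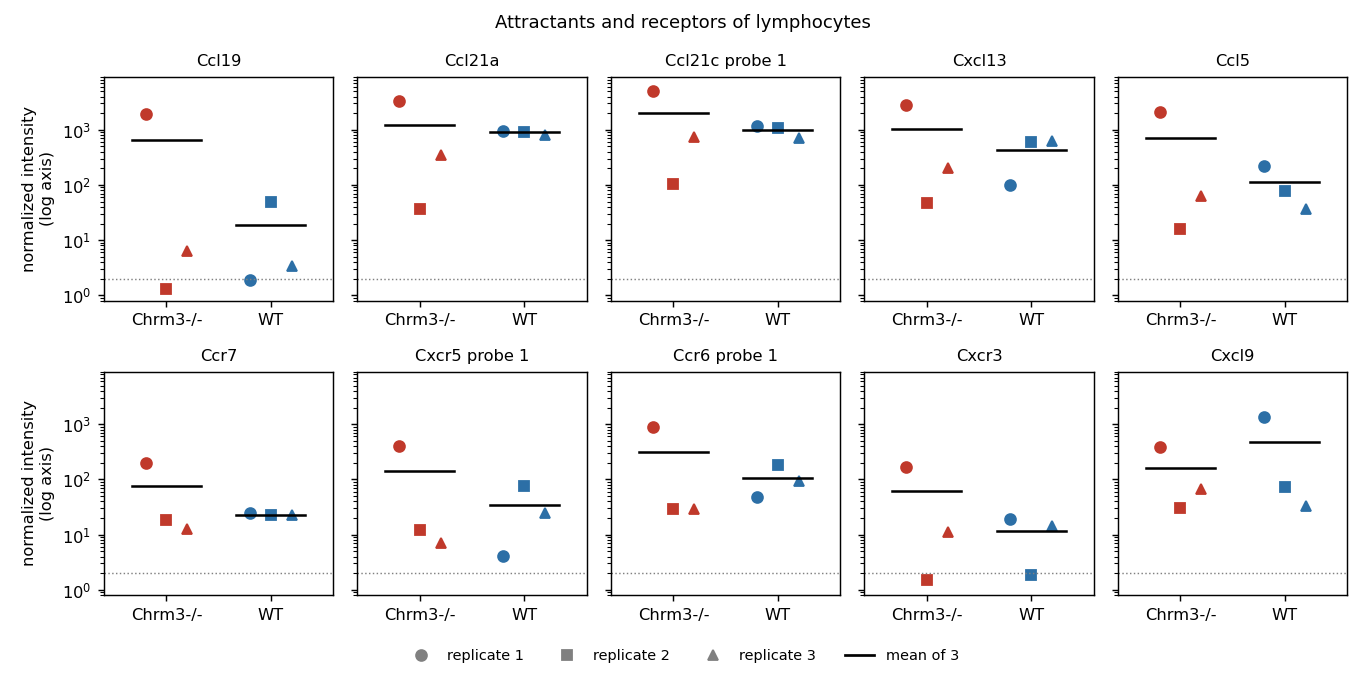
Normalized intensity (log axis) of 10 probes for attractants and receptors of lymphocytes, with 3 Chrm3-/- arrays left of 3 WT arrays, marker shape for the replicate number and a line at the mean. Chrm3-/- replicate 1 (circle) is the highest array in 9 panels, and WT replicate 1 is the highest for Cxcl9.

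Receptors showed the single array most plainly. Chrm3-/- replicate 1 was the highest array for 9 of 12 tested receptor probes, and the median difference from the WT mean was 1.65, -0.30 and -0.25 on the Chrm3-/- arrays, against 0.03, 0.08 and -0.05 on the WT arrays. With all arrays the median log2 fold change was 0.15 with 4 probes below 0. Without Chrm3-/- replicate 1 it was -0.25 with all 12 below 0, and without Chrm3-/- replicate 2 it was 0.61. Of all 22641 tested probes, 10720 lay below 0 without Chrm3-/- replicate 1. Ccr7, which binds Ccl19 and Ccl21, read 199.5 in Chrm3-/- replicate 1 and 18.4 and 12.8 in the other Chrm3-/- tumors, against 24.6, 22.3 and 22.3 in WT tumors, and its log2 fold change of 0.49 was -0.16 without that array. Cxcr5, which binds Cxcl13, read 406, 12.3 and 7.18 in Chrm3-/- tumors, against 4.18, 75.5 and 24.2 in WT tumors on its first probe, and its log2 fold change of 0.56 was -0.42 without Chrm3-/- replicate 1. Ccr6, the receptor of Ccl20, read 903, 29.6 and 29.1 in Chrm3-/- tumors, against 48.6, 180.4 and 92.2 in WT tumors (log2 fold change 0.30, and -0.02 without the offset). Without Chrm3-/- replicate 1, both Ccr6 arrays that remained lay below all 3 WT arrays, with a log2 fold change of -0.90.

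Cxcr3, the receptor of Cxcl9 and Cxcl10, read 171, 1.51 and 11.03 in Chrm3-/- tumors, against 19.0, 1.89 and 14.2 in WT tumors (log2 fold change 0.53, standard error 0.52, and -0.13 without Chrm3-/- replicate 1). Cxcr4, the receptor of Cxcl12, read 604, 62.7 and 109.7 in Chrm3-/- tumors, against 195, 257 and 107 in WT tumors, and its log2 fold change of 0.00 (standard error 0.65) was -0.76 without Chrm3-/- replicate 1 and -0.12 without the offset. The monocyte receptor Cx3cr1 read 193, 115 and 148 in Chrm3-/- tumors, against 149, 132 and 157 in WT tumors, and all 3 WT values lay inside the Chrm3-/- range. Ccr8 and Cxcr6, receptors of T cells, had log2 fold changes of -0.04 and -0.08, and of -0.18 and -0.21 without Chrm3-/- replicate 1. Over the whole group, 10 tested probes read more than 5 times higher on Chrm3-/- replicate 1 than on any other array. Some of them were probes of the same gene, and the same count was not taken over all tested probes. The third probe of Cxcr5 was under 2 on all Chrm3-/- arrays and read 1.48, 15.7 and 9.45 in WT tumors.

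**Figure D4:**
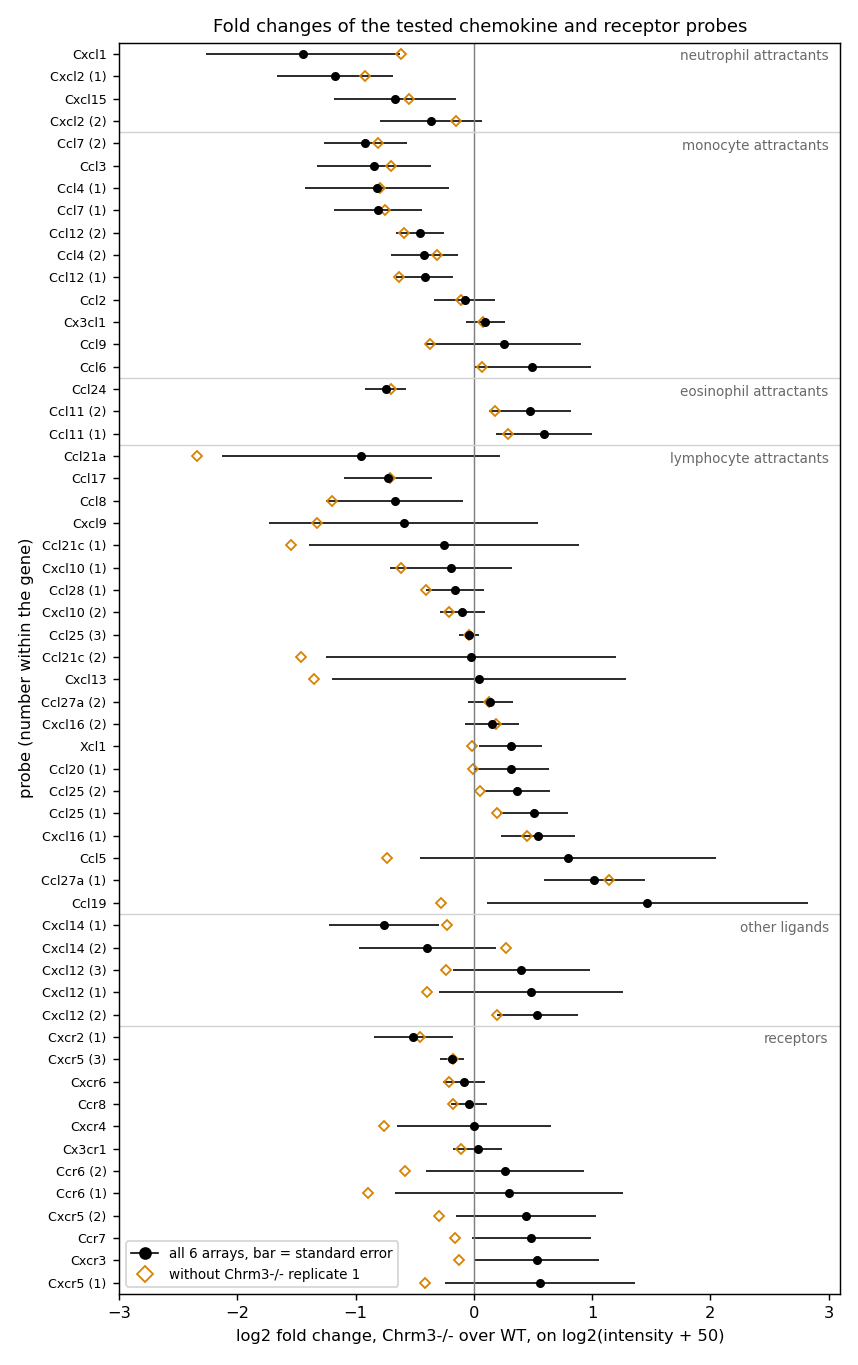
Log2 fold change of Chrm3-/- over WT tumors for the 56 tested probes, grouped by role, with the standard error as a bar (black, all 6 arrays) and the value without Chrm3-/- replicate 1 (open diamonds). Without that array 44 of 56 probes lie below 0, among them all 12 receptor probes, and with all arrays 29 do. Of all 22641 tested probes, 10720 lie below 0 without that array and 10779 with all arrays.

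Markers of lymphocytes and of smooth muscle were also high on Chrm3-/- replicate 1. The summed intensity of 7 matched B and plasma cell markers was 5665, 131 and 346 in Chrm3-/- tumors, against 318, 1613 and 963 in WT tumors. For 11 matched T and NK cell markers it was 5100, 1532 and 2116 in Chrm3-/- tumors, against 3192, 2074 and 2113 in WT tumors, and Cd8a, Ncr1 and Gzmb were under 2 on all arrays. Cd8b1 gave most of that sum on every array but Chrm3-/- replicate 1, where it read 1575 and was not high. Over the 8 tested markers the median difference from the WT mean was 1.74, -0.52 and -0.17 on the Chrm3-/- arrays, against 0.46, -0.20 and -0.27 on the WT arrays. The 7 smooth muscle markers summed to 37939, 9708 and 15035 in Chrm3-/- tumors, against 7889, 12718 and 10510 in WT tumors. Leaving out Chrm3-/- replicate 1, all 7 B and plasma cell markers and 7 of 8 tested T and NK cell markers had log2 fold changes below 0. Of the other lists, log2 fold changes lay below 0 for none of 7 tested smooth muscle markers (median 0.94, and 0.16 without Chrm3-/- replicate 1), 3 of 9 epithelial, 4 of 5 endothelial, 1 of 5 eosinophil and mast cell and the 1 tested dendritic cell marker. The part of lymphoid or muscle tissue in the values of Ccl19, Ccl21a, Cxcl13, Ccr7 and Cxcr5 was not tested. Krt8, a keratin of simple epithelium, read 14060 to 18551 in Chrm3-/- and 13368 to 17930 in WT tumors, whereas the probe of Epcam, an epithelial adhesion molecule, was dim at 1.06 to 2.03 in Chrm3-/- and 8.67 to 12.1 in WT tumors. Some other epithelial markers varied more. Krt20 read 4821, 536 and 903 in Chrm3-/- tumors, against 793, 1290 and 2110 in WT tumors. Cdx2 read 2680, 56.5 and 383 in Chrm3-/- tumors, against 267, 356 and 343.5 in WT tumors. Both were highest on Chrm3-/- replicate 1, where Krt18 was lowest (2364).

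**Figure D5:**
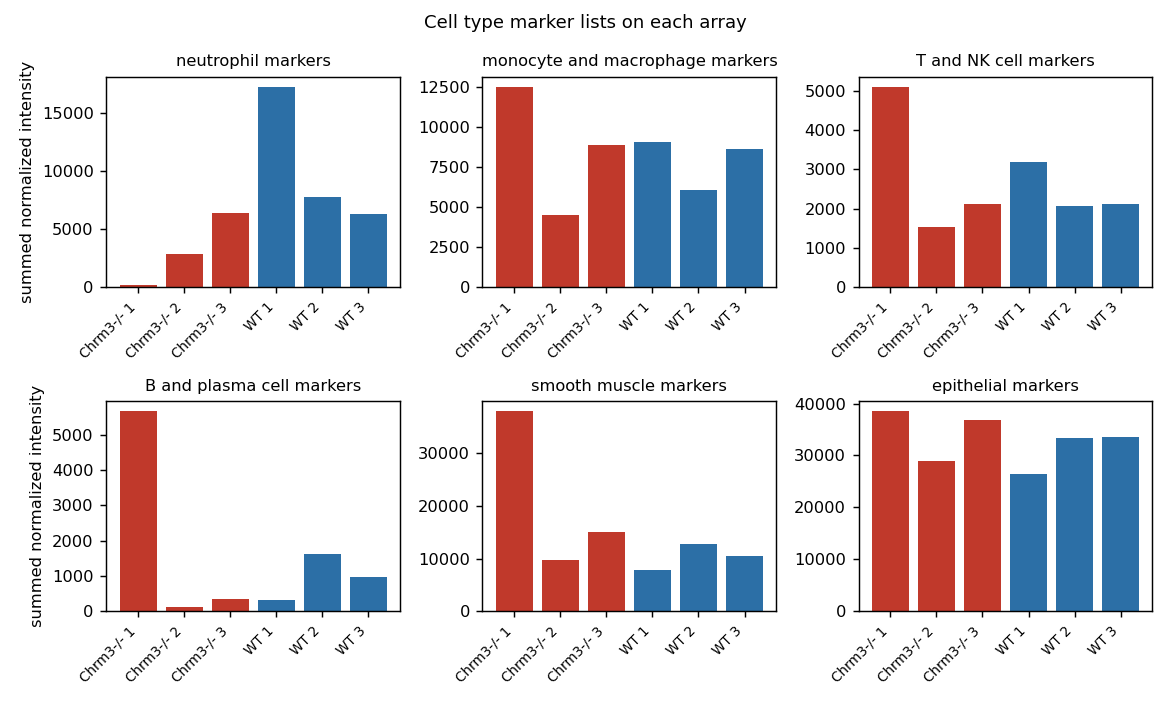
Summed normalized intensity of 6 lists of cell type markers on the 3 Chrm3-/- arrays (red) and the 3 WT arrays (blue). Chrm3-/- replicate 1 has the lowest neutrophil sum (206) and the highest B and plasma cell sum (5665), and WT replicate 1 has the highest neutrophil sum (17250). Lcn2 gave a large part of the neutrophil sum on most arrays. Cd8b1 gave most of the T and NK cell sum on every array but Chrm3-/- replicate 1.

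Cxcl12 and Cxcl14, made by stroma and epithelium, are ligands outside these classes. Cxcl12, the ligand of Cxcr4, read 703, 29.7 and 135 in Chrm3-/- tumors, against 60.0, 110.0 and 182 in WT tumors on its first probe, with a log2 fold change of 0.48 that was -0.39 without Chrm3-/- replicate 1. A second probe gave 362, 133 and 176 in Chrm3-/- tumors, against 86.5, 151 and 153 in WT tumors, and its log2 fold change of 0.54 stayed above 0 as each array was left out, at 0.20 without Chrm3-/- replicate 1. The third probe had a log2 fold change of 0.40, and -0.23 without that array. Cxcl14 read 421, 1262 and 1491 in Chrm3-/- tumors, against 2108, 1196 and 1667 in WT tumors on its first probe (log2 fold change -0.76, standard error 0.46, and -0.23 without Chrm3-/- replicate 1). The second probe had a log2 fold change of -0.39, and 0.27 without that array. The lowest array for Cxcl14 and the highest for Cxcl12 was Chrm3-/- replicate 1. The summed fibroblast markers did not overlap, at 10098, 9727 and 9185 in Chrm3-/- tumors, against 16069, 12566 and 12435 in WT tumors, and Dcn held most of the sum. Of the 7 genes 5 had all Chrm3-/- arrays below the WT arrays, a pattern found in 5.50% of all tested probes. Lum and Thy1 overlapped. In log2 fold change 6 of 7 lay below 0, against 47.6% of all tested probes. In limma 0 of the 7 passed an adjusted p of 0.05, against 0.124% of all tested probes. At an unadjusted p under 0.05, limma found 5 of the 7, against 4.82% of all tested probes. The methods' t-test found 4 of the 7 at an unadjusted p under 0.05, against 5.47% of all tested probes, and 0 after adjustment.

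The remaining 22 probes were not tested, and 14 genes had no tested probe: Ccl1, Ccl22, Ccl26, Ccr1, Ccr2, Ccr3, Ccr4, Ccr9, Ccr10, Cxcl3, Cxcl11, Cxcl17, Cxcr1 and Xcr1. The highest intensity among these probes was 12.1, for Ccl1 on WT replicate 1. Of the 22, 13 were under 2 on all 6 arrays. The monocyte receptor Ccr2 was above 2 on WT replicate 2 alone (5.13), and the neutrophil receptor Cxcr1 on WT replicates 1 and 3 (9.19 and 4.36). Of the 56 tested probes, 28 had a mean intensity of at least 100 and 4 one under 10.

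No tested gene of the wider chemokine pathway passed either. The list held 22 genes for platelet chemokines, atypical receptors that bind chemokines without G protein signalling, and the G proteins, arrestins and effectors that act below the receptors. Of 17 tested, 5 lay below 0 and 12 above it, with a median log2 fold change of 0.10. None passed in limma at an adjusted p or at an unadjusted p of 0.05, where 0.124% and 4.82% of all tested probes did. Without Chrm3-/- replicate 1, 13 of the 17 lay below 0 and the median was -0.08. Cytokines and transcription factors that induce chemokine genes gave a median of -0.00 over 11 tested genes, with 6 below 0 and again 0 at either p in limma. The methods' t-test found 0 of both lists at an unadjusted p under 0.05, against 5.47% of all tested probes.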

How the data were processed

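RNA of colon tumors from 3 Chrm3-/- and 3 WT mice was measured on 1 MouseWG-6 v2.2 BeadChip array each. The authors deposited probe intensity values, normalized with cubic splines and with no background subtracted, on a linear scale with the same set of values on each array. A second table of signals before normalization has 6 columns that match no sample, and these were not used. Microarray precision is limited by the number of arrays. Intensities were analysed as log2(value + 50), and the probes whose mean log2 value reached the median over probes were fitted with limma 3.58.1 (R 4.3.3, lmFit and eBayes with a trend) with genotype as the only term, with 4 residual and 2.87 prior degrees of freedom. The median standard error was 0.187. P-values were adjusted by Benjamini-Hochberg over all 22641 tested probes. The limma step was tested on simulated data. Tables and plots were made in Python 3.11.15 with pandas 2.3.3, numpy 2.4.6 and matplotlib 3.10.9.

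The platform annotation gave gene names: 1 symbol for 34885 probes, several for 18 and no entry for 10378. Members, classes and lists were chosen with earlier results of these data known. Array values are given for 24 member probes: those with an unadjusted p under 0.05, the 3 largest log2 fold changes and the brightest probe of each class. Another 6 were chosen after their values were seen (Ccl5, Ccl7, Ccl25, Cxcl2, Cxcl9 and Cxcl13, 1 probe each). So were the third probe of Cxcr5, the probes of Ccr2 and Cxcr1, and the markers Krt8, Krt18, Krt20, Cdx2, Lcn2, Lyz2 and Cd8b1. The inducers were named by their highest array after their values were seen. Results were recomputed with no offset, with offsets of 16 and 100, with other filters, with a variance model without a trend, with the replicate number as a block, with the methods' t-test and leaving out each array in turn. A planned search of protein sequences for Glu-Leu-Arg was not run.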

Additional observations from a re-analysis of the deposited data

How the results depend on the processing

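No chemokine or receptor probe passed an adjusted p of 0.05 under any setting run, and the lowest adjusted p of the 30 probes described was 0.431. The number of probes called among all genes was less stable: 28 with the settings used, against 45 in plain log2 values, 12 where no filter was set, 9 with the methods' t-test and 4 to 31 as each array was left out. Class medians moved on the plain log2 scale, to -2.27 for neutrophil attractants and -0.86 for monocyte attractants. Fold changes below 0 were found on the plain log2 scale for Ccr6 (-0.020), Cxcr4 (-0.12) and Cxcl13 (-0.15), and with an offset of 16 for Cxcr4 (-0.067) and Cxcl13 (-0.068). The causes were not tested.

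As single arrays were left out, 15 of the 30 probes changed sign. Their log2 fold changes ran from -0.28 to 2.37 for Ccl19, -2.34 to 0.29 for Ccl21a, -1.55 to 0.99 for Ccl21c, -0.37 to 1.03 for Ccl9, -0.39 to 1.23 for the first probe of Cxcl12, -0.90 to 0.90 for Ccr6, -0.16 to 0.84 for Ccr7, -0.13 to 0.92 for Cxcr3, -0.42 to 1.08 for Cxcr5, -0.11 to 0.17 for Cx3cr1, -0.76 to 0.51 for Cxcr4, -0.74 to 1.76 for Ccl5, -1.35 to 1.09 for Cxcl13, -1.36 to 0.67 for Cxcl9 and -0.76 to 0.042 for the second probe of Cxcl2.

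The replicate numbers are shared by the genotypes, but arrays of the same number did not deviate together (correlations of -0.153, -0.0265 and 0.0193). With the number as a replicate block, 1 probe was called among all genes. Probes near an intensity of 2 have no measured level, which limits what can be said of the dim receptors.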
